A study of Mus musculus with 20 samples.

Results

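Head-to-head lincRNA loci are pairs of long intergenic non-coding RNA genes that are transcribed away from each other from starts lying close together. They were taken from the deposited lincRNA gene models of mouse. A locus on the minus strand was paired with the next locus on the plus strand to its right where the plus start lay 1 to 1000 bases beyond the minus end on chromosomes 1 to 19. No other locus had its first or last base in the gap. This gave 222 pairs with 444 members, out of 29286 loci in all and 27637 on these chromosomes (1.61% of the latter).

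The study sequenced RNA captured with newly replicated DNA in 20 libraries, 2 in each of 10 groups, from wild-type mouse embryonic stem cells and from NIH3T3, an immortalised fibroblast line. Cells were labelled with the thymidine analogue EdU for 10 min and fixed in 1% formaldehyde, and NIH3T3 cells had first been synchronised with thymidine (2 mM, 15 h) and returned to fresh medium (2.5 h). Each cell type had a control without the click reaction that links biotin to EdU (no click, DMSO in its place) and a click pulldown without drug (normal). The groups HU, chase and protease, also click pulldowns, had the hydroxyurea label, for which the protocol gives 4 mM for 4 h. The file analysed here holds exon positions of gene models and no value per library, so depth is unknown, and neither RNA levels nor the comparisons between groups are analysed here. Whether these RNAs were present at replication forks is therefore not addressed by any value below. The identifiers carry the NONMMUG prefix of the NONCODE database, and coordinates of loci are mm9 positions.

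Many mammalian promoters fire in both directions: RNA polymerase II starts on both strands from a shared nucleosome-free stretch, and the 2 RNAs run away from each other. Protein-coding genes often have such an upstream non-coding partner, and their shared promoters are typically rich in CpG dinucleotides. Splicing, polyadenylation and chromatin decide how long each of the RNAs becomes.

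Some pairs could be tied to named genes, and the sequence around their starts is shown first so that the bases between and around the 2 starts can be seen. The windows are RefSeq promoter windows of GRCm38.p6, which run from 250 bases before to 50 after the annotated start, written 5′ to 3′ on the strand of the gene. In the first, of Gm40421 (chr12:51004863-51005162, minus strand), capitals mark the bases between its start and that of its partner 1700008C04Rik, 244 bases away in RefSeq and 283 in the deposited models.
Gm40421: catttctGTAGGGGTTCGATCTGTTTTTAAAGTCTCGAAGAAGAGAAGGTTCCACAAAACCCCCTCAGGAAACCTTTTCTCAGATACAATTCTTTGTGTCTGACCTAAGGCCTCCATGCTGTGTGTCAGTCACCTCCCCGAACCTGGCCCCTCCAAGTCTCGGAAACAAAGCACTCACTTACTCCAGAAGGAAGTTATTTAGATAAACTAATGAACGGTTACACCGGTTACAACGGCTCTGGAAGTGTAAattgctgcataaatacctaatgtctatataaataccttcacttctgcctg
In the window of 1700030O20Rik (chr10:116729128-116729427, minus strand), capitals mark the bases up to the start of 4930579P08Rik, 76 bases away in RefSeq and 64 in the deposited models.
1700030O20Rik: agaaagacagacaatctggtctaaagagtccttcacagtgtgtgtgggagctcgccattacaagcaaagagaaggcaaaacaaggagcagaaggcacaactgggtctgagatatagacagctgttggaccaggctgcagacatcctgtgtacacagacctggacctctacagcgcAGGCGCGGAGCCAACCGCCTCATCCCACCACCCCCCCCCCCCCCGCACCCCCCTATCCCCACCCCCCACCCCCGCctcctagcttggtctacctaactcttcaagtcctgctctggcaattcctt
Both windows are poor in CpG. That of Gm40421 had 7 CpG dinucleotides and a ratio of observed to expected CpG of 0.502, and that of 1700030O20Rik had 7 and a ratio of 0.304. In 1700030O20Rik most of these CpG lie in the capitals between the 2 starts. The ratio of that shorter stretch alone was not computed, so 0.304 does not describe it. The reading TAACNG, which is part of sequences bound by MYB-family transcription factors, occurred at 2 places in the window of Gm40421, starting 35 and 26 bases before its start, both on the opposite strand. The same 2 places appear in the overlapping window of 1700008C04Rik.

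Further windows show the range of composition, with every CpG in capitals. The first belongs to 1700028E10Rik (chr5:151368425-151368724, plus strand), which had the most CpG of the 63 windows found for members, 38 with a ratio of 1.06.
1700028E10Rik: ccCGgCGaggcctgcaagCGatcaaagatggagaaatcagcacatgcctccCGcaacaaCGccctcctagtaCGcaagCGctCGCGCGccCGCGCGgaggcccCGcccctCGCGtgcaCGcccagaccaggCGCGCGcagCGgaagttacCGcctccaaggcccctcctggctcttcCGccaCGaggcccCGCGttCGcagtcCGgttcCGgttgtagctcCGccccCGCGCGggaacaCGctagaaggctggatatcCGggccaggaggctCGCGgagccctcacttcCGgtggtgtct
The second is that of Pantr2 (chr1:42713405-42713704, minus strand), a non-coding gene named for lying beside the neural transcription factor gene Pou3f3. It had 16 CpG and a ratio of 0.605, and the start of the deposited model lies 254 bases before the RefSeq start, just outside the window. In the other windows shown here the deposited start lies inside.
Pantr2: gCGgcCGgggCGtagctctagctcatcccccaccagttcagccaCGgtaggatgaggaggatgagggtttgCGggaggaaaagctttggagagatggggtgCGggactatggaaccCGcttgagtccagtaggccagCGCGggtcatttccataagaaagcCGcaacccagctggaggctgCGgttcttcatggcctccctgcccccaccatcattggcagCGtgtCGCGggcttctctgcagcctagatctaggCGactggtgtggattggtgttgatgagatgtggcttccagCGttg
The third is that of C920006O11Rik (chr9:78175664-78175963, plus strand), with 14 CpG and a ratio of 1.01 at 43% G+C.
C920006O11Rik: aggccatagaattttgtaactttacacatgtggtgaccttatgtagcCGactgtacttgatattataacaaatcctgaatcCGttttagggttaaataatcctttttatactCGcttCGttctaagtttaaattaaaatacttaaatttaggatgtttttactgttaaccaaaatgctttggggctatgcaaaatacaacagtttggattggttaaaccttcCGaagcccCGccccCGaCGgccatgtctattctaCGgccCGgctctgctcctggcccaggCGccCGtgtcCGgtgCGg
Its partner is described below.

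The starts of most pairs lay much closer together than the limit of 1000 bases. The distances ran from 3 to 997 bases with a median of 214.5 (quartiles 99.5 and 529.5). A distance of at most 200 bases was found in 106 of the 222 pairs (47.7%, 95% exact binomial interval 41.0 to 54.5%). Among the 121 pairs of neighbouring loci whose ends faced each other within 1 kb (tail to tail) it was found in 34 (28.1%, 20.3 to 37.0%), and among 553 neighbouring pairs on the same strand in 170 (30.7%, 26.9 to 34.8%). The limit itself was fixed by the choice of pairs, the 3 kinds of pair share some loci, and no test was run, since loci of 1 annotation are not replicates. The intervals here and below cover counting error only.

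**Figure D1:**
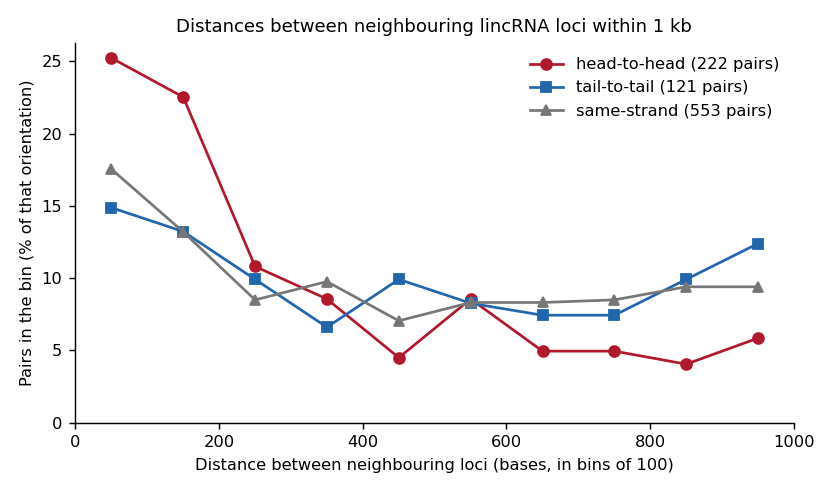
Share of pairs (vertical axis, % of the pairs of an orientation) by the distance between the neighbouring loci (horizontal axis, bases, bins of 100), for head-to-head (red), tail-to-tail (blue) and same-strand (grey) neighbours. Head-to-head pairs peak in the first 2 bins, with 56 and 50 of 222 pairs, and the other orientations are flatter.

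The closest pairs were separated by less than 15 bases. NONMMUG027065 and NONMMUG027066 on chromosome 3 (88031333 to 88036258 and 88036261 to 88036800) had starts 3 bases apart, the first with 3 exons and the second a single exon of 540 bp. NONMMUG028743 and NONMMUG028744 on chromosome 4 (28518803 to 28519721 and 28519726 to 28519989) were 5 bases apart. NONMMUG015148 and NONMMUG015149 on chromosome 15 (85522398 to 85527003 and 85527011 to 85528408) were 8 bases apart. At 11 bases, NONMMUG024764 on chromosome 2 (132315410 to 132316359), a single exon of 950 bp, faced NONMMUG024765 (132316370 to 132349793), which had 10 transcripts and corresponded to 1700026D11Rik. At 14 bases, the single-exon locus NONMMUG013815 on chromosome 14 (118608600 to 118610899) faced NONMMUG013816 (118610913 to 118614021), with 4 transcripts. Each of these 5 pairs set a spliced locus against a single exon, with the spliced locus on the minus strand in the first 3 and on the plus strand in the other 2. This was not the usual form of close pairs: both partners were spliced in 37 of the 56 pairs at up to 100 bases (66.1%, 52.2 to 78.2%).

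At the limit, the pairs just inside were NONMMUG018393 and NONMMUG018394 on chromosome 17 (997 bases), NONMMUG028449 and NONMMUG028450 on chromosome 4 (989 bases) and NONMMUG024739 and NONMMUG024740 on chromosome 2 (987 bases), the first of which corresponded to Gm14280. NONMMUG032239 and NONMMUG032240 on chromosome 5 were also 987 bases apart. Just outside lay NONMMUG015627 and NONMMUG015628 on chromosome 16 (1009 bases), NONMMUG040026 and NONMMUG040027 on chromosome 8 (1020 bases) and NONMMUG025915 and NONMMUG025917 on chromosome 2 (1024 bases). The most exons in a transcript ran from 1 to 6 in the loci just inside and from 1 to 4 in those just outside.

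Splicing was frequent among the members. A spliced transcript, meaning one with 2 or more exons, was present in 325 of 444 members (73.2%, 95% exact interval 68.8 to 77.3%) against 12635 of 27193 other loci on the same chromosomes (46.5%, 45.9 to 47.1%). The share was much the same on both strands, 159 of 222 minus-strand members (71.6%) and 166 of 222 plus-strand members (74.8%). A transcript with 3 or more exons was present in 141 members (31.8%, 27.4 to 36.3%) against 17.8% (17.4 to 18.3%) of the other loci. Tail-to-tail neighbours were also often spliced, 165 of 242 (68.2%, 61.9 to 74.0%), whereas same-strand neighbours were close to the other loci, 522 of 1092 (47.8%, 44.8 to 50.8%). Head-to-head and tail-to-tail loci, both lying beside a locus on the opposite strand, thus had overlapping intervals for the spliced share. For 3 or more exons the tail-to-tail share was 51 of 242 (21.1%, 16.1 to 26.8%), an interval below that of the members.

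Both partners were spliced in 126 of the 222 pairs (56.8%, 50.0 to 63.4%). Only the minus partner was spliced in 33, only the plus partner in 40, and neither in 23 (10.4%, 6.68 to 15.1%). The shares of the 2 strands multiplied give 53.6% with both spliced, which lies within the interval of the observed share. Pairs with neither partner spliced were few at short distance: 2 of 56 pairs at up to 100 bases (3.57%, 0.435 to 12.3%) and 3 of 50 from there to 200 bases. There were 11 of 53 over 200 and up to 500 bases (20.8%, 10.8 to 34.1%) and 7 of 63 beyond that (11.1%, 4.59 to 21.6%). These intervals overlap between neighbouring ranges of distance. Among the 362 head-to-head pairs over 1000 and up to 5000 bases apart, which are not members, both partners were spliced in 40.1% (35.0 to 45.3%) and neither in 22.9% (18.7 to 27.6%). In tail-to-tail neighbours both were spliced in 63 of 121 pairs (52.1%, 42.8 to 61.2%), an interval that overlaps that of the 222 pairs.

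**Figure D2:**
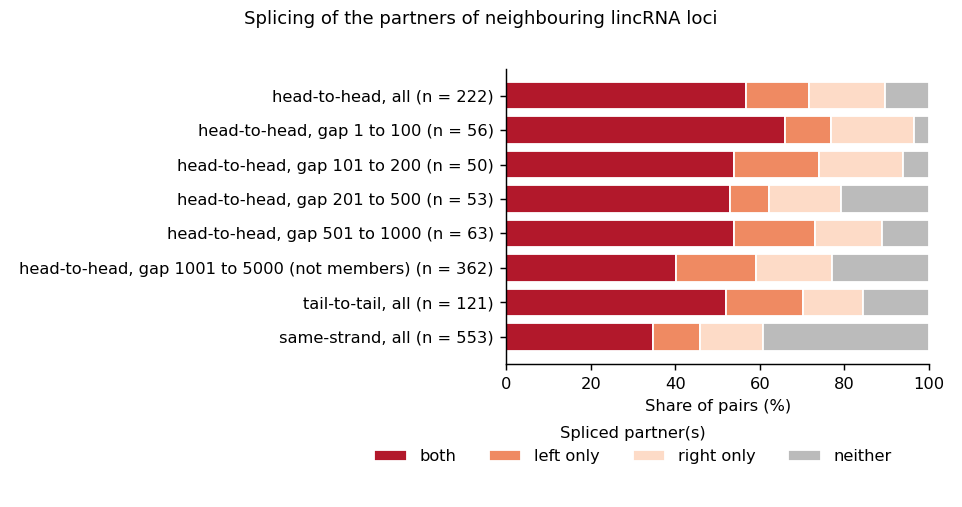
Share of pairs (horizontal axis, %) in which both partners, only the left one, only the right one or neither had a spliced transcript, for head-to-head pairs by distance in bases and for tail-to-tail and same-strand neighbours; in head-to-head pairs the left partner is on the minus strand. Both partners were spliced in 56.8% of head-to-head pairs within 1 kb, in 52.1% of tail-to-tail and in 34.7% of same-strand neighbours.

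Members had a shorter median transcript and a longer median span than other loci. The 733 transcripts of the members had a median length of 810 nt (quartiles 489 and 1634, range 206 to 10695) against 1200 nt for the 37932 transcripts of other loci. This held within both kinds of transcript. Spliced transcripts had medians of 773.5 nt in members and 856 nt in the others, and those of a single exon 1093 and 1779 nt. The median span on the genome was nevertheless longer, 3037.5 bp against 2342 bp. The lower quartiles of the span were 1209.5 and 1243 bp. Spans were not compared for spliced loci alone, so the larger share of spliced loci among members enters this difference. The first exon of spliced transcripts was of like size, a median of 182 nt against 187 nt, and the first intron had a median of 1701 bp against 1449 bp. Tail-to-tail neighbours lay between members and other loci in the medians of all transcripts (1095.5 nt), single-exon transcripts (1421.5 nt) and span (2530 bp). Their spliced transcripts, with a median of 951.5 nt, were longer than those of either group.

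Partners often differed in size, and so did neighbours in other orientations. The larger span was a median of 3.23 times the smaller one over the 222 pairs, 2.80 times in tail-to-tail and 2.26 times in same-strand neighbours. The ratio of the longest transcripts had a median of 2.08, 2.07 and 1.90 in the same order. Such a ratio is above 1 for any unequal loci. The longest spans were in one partner only: NONMMUG040406 on chromosome 8 (40863509 to 41039687, minus strand) covered 176179 bp with up to 5 exons, 528 bases from NONMMUG040408, which covered 7699 bp. NONMMUG034639 on chromosome 6 (13821526 to 13994385) covered 172860 bp and faced the single exon NONMMUG034638 of 663 bp at 61 bases. The pair Gm29687 and 4930480M12Rik on chromosome 12 covered 118544 and 29441 bp.

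Most members had a single transcript, 324 of 444 (73.0%). Several transcripts were present in 120 members (27.0%, 22.9 to 31.4%) against 16.4% (15.9 to 16.8%) of other loci, and 5 or more in 23 members (5.18%, 3.31 to 7.67%) against 2.13% (1.96 to 2.31%). Several transcripts were present in 19.4% of tail-to-tail neighbours, with an interval that overlaps that of the members, and in 207 of 1092 same-strand neighbours (16.7 to 21.4%). For 5 or more transcripts these shares were 2.07% (0.674 to 4.76%) and 3.39% (2.40 to 4.64%), and both intervals overlap that of the members. The pairs with the most transcripts were very uneven. NONMMUG018560 on chromosome 17 (52438288 to 52490524) had 10 transcripts and its partner NONMMUG018562 at 295 bases had 1. NONMMUG024765 had 10 and its partner 1, and NONMMUG028449 on chromosome 4 (7349905 to 7382542) had 9, the longest of 10695 nt, and its partner 1. The pairs of Gm33699 and of C920006O11Rik, both on chromosome 9, also had 9 and 1.

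Within a member, not all transcripts began at the start shared with the partner. In the 120 members with several transcripts, 258 of 409 transcripts (63.1%) began within 100 bases of the outermost start, and in 47 members (39.2%) all of them did. The transcript starting farthest inside lay a median of 603.5 bases from the outermost start and at most 79180 bases. The median distance between partners rose from 214.5 to 378 bases when the median start of each locus was used in place of the outermost one.

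**Figure D3:**
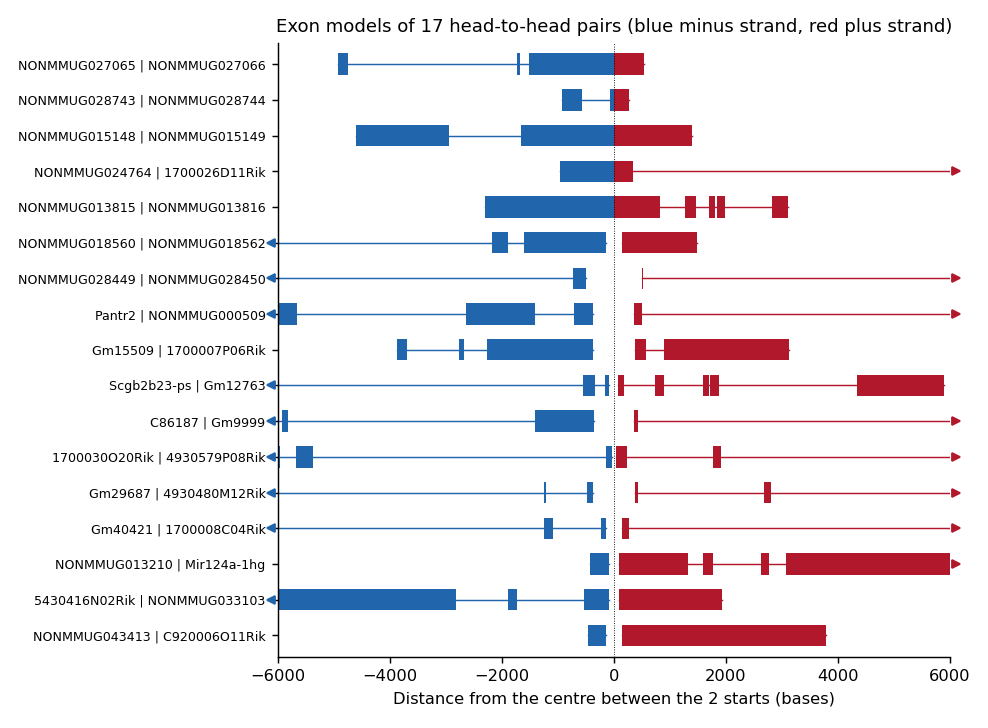
Exon models of 17 head-to-head pairs, with 1 row per pair, merged exons as boxes and introns as lines, minus-strand loci in blue and plus-strand loci in red, against the distance from the centre between the 2 starts (horizontal axis, bases). Arrowheads mark loci that go on beyond 6000 bases, as does Pantr2 on the left and its partner NONMMUG000509 on the right.

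The models carry no gene symbols. Members with 3 or more exons were compared with GENCODE M21 (GRCm38) by the exact lengths of 3 successive pieces, an exon and the introns on either side of it. Chromosome and strand had to be the same, and no coordinate was converted. Of the 141 such members, 76 matched 1 gene (53.9%, 45.3 to 62.3%), and 53.2% of the other loci did. GENCODE calls 50 of the 76 lincRNA (65.8%), 9 antisense, 7 protein-coding (9.21%) and 2 pseudogenes (2.63%). Among 2578 other matched loci, the shares were 61.0% lincRNA, 5.78% protein-coding and 9.66% pseudogenes. The 7 matched to protein-coding genes included Aldoa, the glycolytic enzyme aldolase A, and Sh3gl3, an endophilin of synaptic vesicle uptake. The others were Mcf2l, Zfp141, Cdhr4, Gm9999 and Gm11627. Such a match says that an internal stretch of the model is shared with that gene, not that the model codes for protein.

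A pair can also be found as a pair. An intron of the minus partner, the distance from it to an intron of the plus partner and that second intron had to have the same 3 lengths in GENCODE, which also reaches loci with 2 exons. Of the 126 pairs with both partners spliced, 29 were found (23.0%, 16.0 to 31.4%), each with 1 pair of genes and with no conflict with the names above. With the distance moved by 1 base, none was found. This named 30 more members, and 106 of 444 in all: both partners in 29 pairs, 1 partner in 48 and none in 145. In GENCODE the starts of the 2 genes lay 1 to 1000 bases apart in 22 of the 29, the gene spans overlapped in 5, and the starts were farther apart in 2. The distance equalled that of the deposited models in 8 pairs and differed by at most 50 bases in 16.

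**Figure D4:**
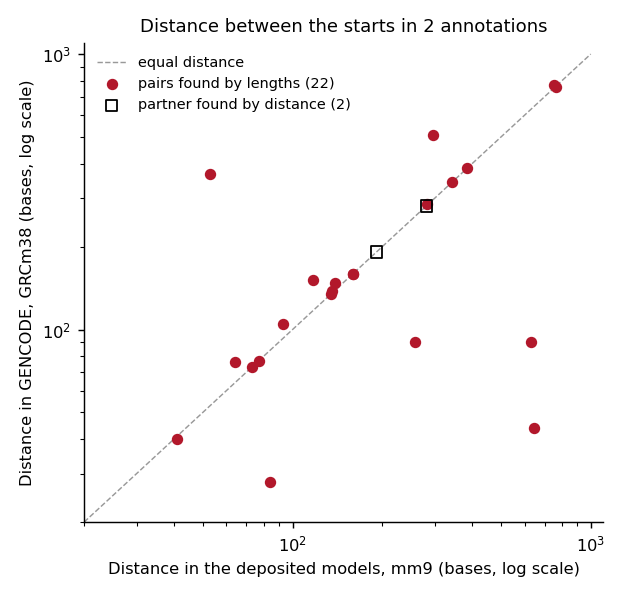
Distance between the starts of head-to-head partners in GENCODE M21 (vertical axis, bases, log scale) against the deposited models (horizontal axis, bases, log scale), for the 22 pairs found by lengths whose GENCODE genes start 1 to 1000 bases apart (red) and for 2 partners found by distance (squares). Points on the dashed line have equal distances, and 6 red points differ by more than 50 bases.

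Pairs with the same distance in both annotations included Gm29687 and 4930480M12Rik (762 bases), Gm14206 and Gm12349 (385 bases), Scgb2b23-ps and Gm12763 (159 bases), Gm35618 and Gm48819 (135 bases), 4930518C09Rik and Gm20475 (77 bases) and Gm48190 and 4921525O09Rik (73 bases). Scgb2b23-ps is a secretoglobin pseudogene, and its 3 transcripts on chromosome 7 (34410164 to 34438300) faced 4 of Gm12763. In the pair with the most exons, NONMMUG007709 on chromosome 11 (102593719 to 102614175) had 11 and corresponded to Gm16342, 342 bases in both annotations from Gm11637. GENCODE calls both of these pseudogenes. Other loci among those with the most exons were 4921525O09Rik and 4932411K12Rik, both on chromosome 13.

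Some pairs bore names tied to a coding gene. Sox5it and Sox5os3, named after the gene of the transcription factor Sox5, were 139 bases apart in the deposited models (chromosome 6, 144613615 to 144621240 and 144621379 to 144642980) and 148 in GENCODE. Each had 3 transcripts. Zfp286os, 678 bases from its partner on chromosome 11, faced a 2-exon model whose intron length is that of the coding gene Zfp286, and in GENCODE these genes overlap. 4921523L03Rik and Cdhr4, a cadherin-related gene, were 70 bases apart in the deposited models and overlap in GENCODE. Of the 76 genes matched by their own lengths, 13 overlapped a protein-coding gene in GENCODE (17.1%, 9.43 to 27.5%), and 17.5% of the other matched genes did.

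GENCODE was searched for the gene that starts beside each matched member on the opposite strand. Of the 76, 26 had a gene head to head within 1000 bases (34.2%, 23.7 to 46.0%) against 7.84% of the other matched loci, a difference that the choice of members makes. The next share depends on that choice too, since members have a lincRNA model at that place. The gene was protein-coding in 2 members (2.63%, 0.320 to 9.18%) against 6.36% (5.45 to 7.37%) of the other matched loci, a value inside the interval of the members. They were 1110019D14Rik, which faces 2610001J05Rik at 8 bases in GENCODE, and 4930527F14Rik, which faces Fermt2, the gene of the integrin activator kindlin-2, at 240 bases. GENCODE types 4930527F14Rik as a bidirectional promoter lncRNA. In the deposited models the partners of these 2 members were NONMMUG034638 at 61 bases and NONMMUG012788 at 133 bases. RefSeq places the starts of the first pair of genes 51 bases apart and those of the second 13400 bases apart, so the second is not a close pair there. The deposited start of 4930527F14Rik lies 27 bases from its RefSeq start. Its partner NONMMUG012788 is therefore not at the start of Fermt2, and only the GENCODE gene faces Fermt2.

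One partner of a named member stood at the distance of a small nuclear RNA gene and had its length. C920006O11Rik (NONMMUG043414, chromosome 9, 78023721 to 78027372, plus strand, 9 transcripts) lay 281 bases from the single exon NONMMUG043413 (78023109 to 78023440, minus strand), of 332 nt. In GENCODE and in RefSeq the gene head to head with C920006O11Rik is Rn7sk, also at 281 bases, and its span in RefSeq is 332 bp (331 nt in GENCODE). Rn7sk encodes 7SK, an abundant RNA made by RNA polymerase III that holds the elongation factor P-TEFb in an inactive complex. RefSeq types it as snRNA and GENCODE as misc_RNA. This partner was found through the distance alone, since a single exon cannot be matched by introns, and it was singled out after its values were seen. Of the 48 named members with an unnamed partner, 5 had a gene head to head in GENCODE, and in 2 the distance was equal. The second was 5430416N02Rik, 191 bases from NONMMUG033103 and from Gm42690, whose GENCODE type is TEC. Its longest transcript had 1834 nt and that of Gm42690 has 1836 nt.

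Of 49 known lncRNAs listed for this comparison, 45 are in GENCODE, 26 matched a locus by its own lengths and 2 of these were members. Pantr2 matched NONMMUG000508 (chromosome 1, 42763917 to 42770553, minus strand, 6 transcripts, up to 4 exons), whose partner NONMMUG000509 at 735 bases had 1 transcript of 2 exons over 31995 bp. Mir124a-1hg, the host gene of a copy of the neuronal microRNA miR-124, matched NONMMUG013211 (chromosome 14, 65206124 to 65212798, plus strand, 5 transcripts), whose partner NONMMUG013210 at 190 bases was a single exon of 339 bp. GENCODE has no gene head to head with either within 1000 bases.

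Names of many matched members came from testis clones. RIKEN gave the numbers starting with 17 or 49 to cDNA clones from adult mouse testis libraries, and genes without another symbol still carry them. A name of this kind was found for 23 of the 76 matched members (30.3%, 20.2 to 41.9%) against 424 of 2578 other matched loci (16.4%, 15.0 to 17.9%), 3 of 32 tail-to-tail (9.38%) and 11 of 73 same-strand neighbours (15.1%). The intervals of the tail-to-tail and of the same-strand neighbours both overlap that of the members. Among matched members, such a name was found for 15 of 39 at up to 200 bases (38.5%, 23.4 to 55.4%). At over 200 bases it was found for 8 of 37 (21.6%, 9.83 to 38.2%). Matched loci of head-to-head pairs over 1000 and up to 5000 bases apart had it in 14 of 96 (14.6%, 8.21 to 23.3%). Of the 29 pairs with both partners named, 15 had such a name in either partner and 4 in both: 4930459L07Rik and 1700029E06Rik, 1700030O20Rik and 4930579P08Rik, 4930544I03Rik and 1700105G05Rik, and 4930542C16Rik and 4930428N03Rik. Any RIKEN clone name was found for 29 of the 76 (38.2%, 27.2 to 50.0%) and for 30.4% (28.6 to 32.2%) of the other matched loci, and these intervals overlap. The name says where a clone was first found, not where the RNA is made. These prefixes were looked up after the names had been seen, and no test was run.

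The promoter windows of named members were poor in CpG, like those of other matched loci. RefSeq had a window for 63 of the 106 named members, each from a different gene. Measured from an intron of the same length in the deposited model and in GENCODE, the start of the model lay inside the window in 44 of the 63 (69.8%, 57.0 to 80.8%) and more than 1000 bases from the RefSeq start in 8. The farthest were Gm31227 (24289 bases) and Gm33699 (23671 bases), and those of Aldoa, Zfp286os and Cdhr4 were 8682, 4416 and 3269 bases away. Values over all 63 windows are therefore in part not about the head-to-head starts. Their median ratio of observed to expected CpG was 0.254, against 0.250 for 1491 other matched loci and 0.588 for 20150 windows of protein-coding genes. CpG-rich windows, with at least 50% G+C and a ratio of at least 0.6, were 7 of 63 (11.1%, 4.59 to 21.6%), against 13.1% (11.5 to 15.0%) of the other matched loci and 46.7% (46.0 to 47.4%) of the protein-coding windows. The 7 were those of 1700028E10Rik, 5430416N02Rik, Gm11205, Gm12763, Sh3gl3, Zfp141 and Pantr2, and 5 windows had no CpG at all. The windows of Gm11205, Sh3gl3 and Pantr2 do not hold the start of the model. Nor do those of Aldoa and Gm40608, which are among the 5 without CpG. Among the 44 windows that hold the start of the model, the median ratio was 0.284 and 4 were CpG-rich (9.09%, 2.53 to 21.7%), against 0.256 and 13.1% (11.1 to 15.3%) in 1010 such windows of other matched loci. Both partners had a window in 5 pairs. The ratios were 0.502 and 0.455 for Gm40421 and 1700008C04Rik, 0.333 and 0.350 for Gm29687 and 4930480M12Rik, 0.304 and 0.318 for 1700030O20Rik and 4930579P08Rik, and 0.280 and 0.0537 for C86187 and Gm9999. For Gm40608 and Gm33619 they were 0 and 0.179. The deposited start of Gm40608 lies 868 bases from its RefSeq start, so its value is not from the head-to-head start. The RefSeq starts of this pair are 1018 bases apart, against 150 in the deposited models.

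**Figure D5:**
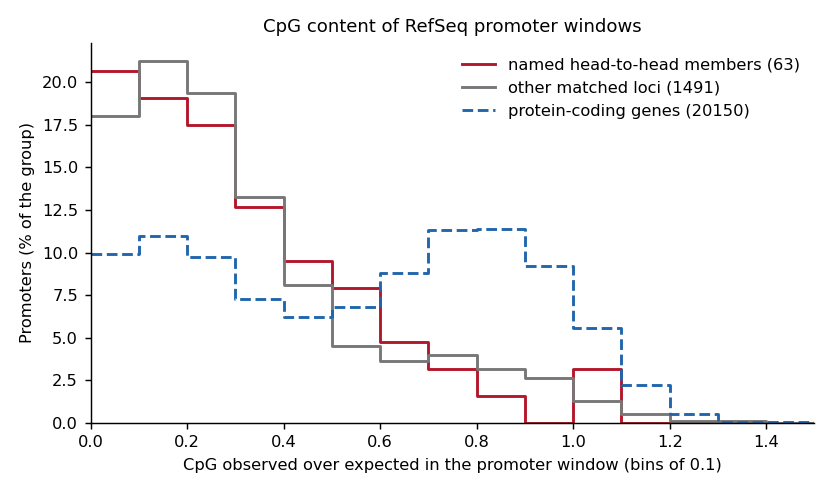
Share of RefSeq promoter windows (vertical axis, % of the group) by ratio of observed to expected CpG (horizontal axis, bins of 0.1), for 63 named head-to-head members (red), 1491 other matched loci (grey) and 20150 windows of protein-coding genes (blue, dashed). Members and other lincRNA loci lie mostly below 0.5, and protein-coding windows have a second peak between 0.7 and 0.9.

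Exact motifs were counted at any position on both strands of the same 300-base windows. Position was not taken into account, so a count is not a number of working elements. TATAAA, the core of the TATA box, was found in 10 of 63 member windows (15.9%), in 15.8% of those of other matched loci and in 13.6% of all 32851 windows in the table. CCAAT was found in 24 (38.1%), 39.0% and 37.4%, in the same order here and below. GGGCGG, the GC box bound by Sp1, was found in 10 (15.9%, 7.88 to 27.3%), 17.7% and 35.7%. CCGGAAG, an ETS-family reading, was found in 6 (9.52%, 3.58 to 19.6%), 4.83% and 8.86%. CACGTG, the E-box, was found in 5 (7.94%), 6.51% and 7.15%, and the palindromic NRF1 motif in 1 (1.59%), 0.268% and 0.971%. Readings added after the names were seen were TAACNG, TGACGTCA, the cyclic AMP response element, and GTTGCC, a part of RFX sites. TAACNG was found in 23 (36.5%, 24.7 to 49.6%), 29.2% and 23.3%, TGACGTCA in 3 (4.76%), 1.54% and 1.79%, and GTTGCC in 10 (15.9%), 14.7% and 12.5%. Each of these member shares had an interval that held the share of the other matched loci, as it did for the 44 windows that hold the start of the model against the 1010.

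Members were spread over all 19 chromosomes, from 3 pairs on chromosome 19 (0.834% of its loci) to 18 on chromosome 14 (2.84%). Their identifiers were mostly consecutive: the numbers of the partners differed by 1 in 204 of 222 pairs (91.9%), by 2 in 16 and by 3 in 2. Numbers rise along the chromosome for 99.9% of neighbouring loci, and of the 20 numbers that fall between the partners of the remaining 18 pairs, 17 belong to other loci of the file. Those loci have neither their first nor their last base in the gap. Exons of a further locus on the opposite strand overlapped 24 members (5.41%, 3.49 to 7.94%), as they did 5.63% of the other loci. Among them, NONMMUG018560 shared 6856 exon bases with such a locus and NONMMUG015829 shared 3904. The sources used here do not say whether the libraries kept strand, and without it reads from overlapping exons cannot be assigned to one locus.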

How the data were processed

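RNA captured with nascent DNA was sequenced in 20 libraries, which were grouped by their titles. The one file analysed is an exon table in GTF format that the authors deposited, with positions, strand and identifiers but an empty score field, so the comparisons between libraries could not be fitted and read depth is unknown. The submitters' processing notes name mm9, TopHat2 2.0.8 and Cufflinks 2.1.1, with no role for each. The sources used here do not say how models were selected.

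The members, lists and comparisons were chosen with earlier results of these data known. A locus was the span of a gene identifier. Another locus counted as in between when its first or last base lay in the gap. Matching across a pair used introns of at least 30 bases. GENCODE M21 and the RefSeq tables are on GRCm38, and coordinates were never converted. The pair search was checked on simulated loci. The matching by lengths was checked on GENCODE pairs moved by a fixed offset with trimmed outer ends. Their introns were unchanged, so that check cannot show how well models of another build are matched. Intervals are exact binomial (Clopper-Pearson) at 95%. The rule for named pairs took the 5 smallest distances, the 3 largest inside and 3 just outside the limit, the 3 with most transcripts, most exons and longest span, and listed known lncRNAs and pairs with both partners named; some of these are given only in the counts. Genes outside this rule were named with their values in view. Alternatives were other distances, readings of "in between", transcripts, chromosomes and matching rules. Python 3.11.15, numpy 2.4.6, scipy 1.17.1 and matplotlib 3.10.9 were used.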

Additional observations from a re-analysis of the deposited data

How the results depend on the processing

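Of 34 alternatives over 10 results, 28 left the value within its interval (counts within 1.5 times), and 13 of the 34 were chosen after seeing the data. The number of pairs was 222 and became 337 with a limit of 2000 bases, 584 with 5000 bases and 126 with spliced loci only, changes that follow from the wider limit or the fewer loci. It was 159 at 500 bases, 230 when only a locus wholly inside the gap counted as in between, 212 when any locus covering the gap did, and 228 with X. The median distance rose from 214.5 to 378 bases with median starts. This setting can only keep or lengthen a distance, since a median start lies at or inside the outermost one. A stricter or false match condition lowered the share of members matched to GENCODE, 53.9%, to 28.4% with at least 2 shared runs and to 0% with the strand of the reference swapped (0 of 141, 95% exact interval up to 2.58%). A run is an exon with the introns on either side. A model with 1 transcript of 3 exons holds only 1 run and cannot meet the stricter condition, so part of that fall is set by the rule. The spliced share stayed between 71.6% and 73.9%. With the longest transcript of each locus it was 71.6% for members and 45.3% for other loci. The share of testis-clone names was 34% of members (21.2 to 48.8%) and 19.7% of other loci (17.8 to 21.8%) among genes GENCODE calls lincRNA, with overlapping intervals. No paired analysis was possible because the file holds no value per library. Names are limited too: 338 members carry none, and names and promoter windows favour members with 3 or more exons or with both partners spliced.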
